A study of Rattus norvegicus with 8 samples.

Results

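The insulin-like growth factor (IGF) axis was followed through 10 genes in nucleus pulposus (NP) cells of the rat after knockdown of Sirt6. They were the ligands Igf1 and Igf2, the receptors Igf1r and Igf2r, and the binding proteins Igfbp2, Igfbp3, Igfbp4, Igfbp5, Igfbp6 and Igfbp7. Members were found by gene name in the authors' comparison table, and their raw reads were then taken by Ensembl gene ID. Of the 10 genes, 8 had a row there, and all 8 were among the 13250 genes tested.

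NP cells fill the soft centre of the intervertebral disc, and SIRT6 is a NAD-dependent enzyme that removes acetyl groups from histones. Primary cells from Sprague Dawley rats were transduced with a lentiviral mix of ShSirt6 clones (Sirt6-KD, libraries S5 to S8) or a control ShRNA (Sirt6-Ctrl, libraries S1 to S4). Both groups carried a lentiviral ShRNA, were selected with puromycin and were grown in DMEM with serum, so the groups differed by label only in the ShRNA. The series record describes cells of 4 rats, with the knockdown set against its respective controls, but neither labels nor count columns carry a rat number shared between the groups, so which libraries share a rat is not known, libraries were not paired and p-values measure the spread between these libraries.

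IGF1 and IGF2 are secreted growth factors that bind the receptor kinase IGF1R and signal through insulin receptor substrates to the PI3K-AKT and MAP kinase cascades. IGF2R, a receptor without kinase activity, takes IGF2 to lysosomes. The IGF binding proteins hold the ligands in the extracellular space and release them when proteases cut them, and in disc and cartilage the axis is known for promoting matrix synthesis and cell survival.

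Libraries held 31994838 to 40124813 reads in Sirt6-Ctrl and 32382957 to 36600792 in Sirt6-KD. Levels are TMM-normalized CPM as edgeR gives them, in which each library is scaled to the same effective size, and 3 reads correspond to 0.0727 to 0.0928 CPM. The ERCC spike-ins, synthetic RNAs added to each sample, took 6.27% of the reads in S1 and 9.8% in S2, against 2.97% to 3.08% in S3 and S4 and 2.15% to 2.47% in Sirt6-KD. S1 and S2 therefore stood apart, and the calls of members and pathway genes are also given without them. Calls required both an adjusted p below 0.05 in edgeR's quasi-likelihood test and a fold change above 1.5. Sirt6 itself had 1964, 1755, 1782 and 1962 reads in S1 to S4 and 753, 702, 738 and 695 reads in S5 to S8. Its level fell by 1.35 (SE 0.135) on the log2 scale (edgeR, adjusted p = 0.000713) and by 1.27 without S1 and S2 (edgeR, adjusted p = 0.00213), and all 4 Sirt6-KD libraries lay below all Sirt6-Ctrl libraries. Of 15 NP marker names (T and Tbxt name the same gene), 8 had a row. Their summed level was 245 to 311 CPM in Sirt6-Ctrl and 217 to 242 CPM in Sirt6-KD. The groups were barely apart in this sum (242 against 245 CPM), and 30.4% of all single genes had groups that did not overlap. By log2 fold change 6 of the 8 were negative and 2, Cdh2 and Sox9, were positive. Of these 8 markers edgeR called 2, Krt8 and Car3, lower (25%, against 10.7% of all genes) and 0 higher (against 8.02%). Mean Car3 went from 16.0 to 2.47 CPM and mean Krt8 from 6.56 to 2.63 CPM. Pax1, Cdh2 and Foxf1 had the highest means in both groups, so the sum shows little of such low markers. The names held no row for Krt18, Krt19, T, Shh, Noto or Col2a1. Markers of annulus fibrosus and fibroblasts summed to 13700 to 26000 CPM in Sirt6-Ctrl and 8340 to 17900 CPM in Sirt6-KD (6 of 7 with a row, 1 of them called lower). Col1a1 alone had means of 17100 and 11000 CPM, so this sum is mostly that gene. By log2 fold change 5 of the 6 were negative and Pdgfra was positive. The 1 called lower was Scx (16.7% of the 6, against 10.7% of all genes), and 0 were called higher (against 8.02%). Markers of macrophages and leukocytes summed to 11.9 to 29.7 and 15.0 to 23.8 CPM (3 of 6, without Ptprc, Adgre1 or Aif1). The 1 endothelial marker of 5 with a row reached 0.592 CPM at most. The part of these markers in the results below was not tested.

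Both receptors rose and 2 binding proteins fell in Sirt6-KD. Igf1r was 2.02-fold and Igf2r 1.59-fold higher, whereas Igfbp4 was 2.57-fold and Igfbp6 2.52-fold lower. Igfbp2, Igfbp3, Igfbp5 and Igfbp7 did not pass the test. Thus 2 of 8 members were called higher, where 8.02% of all genes tested were, and 2 of 8 were called lower, where 10.7% of all genes were. In the 2 members called higher every Sirt6-KD library lay above every Sirt6-Ctrl library, which held for 14.8% of all genes, and in the 2 members called lower every Sirt6-KD library lay below, which held for 15.6% of all genes. On the log2 scale the 8 members had a median change of 0.25, against -0.016 over all genes. In whole cultures, fewer cells of a type and less RNA per cell cannot be told apart.

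**Figure D1:**
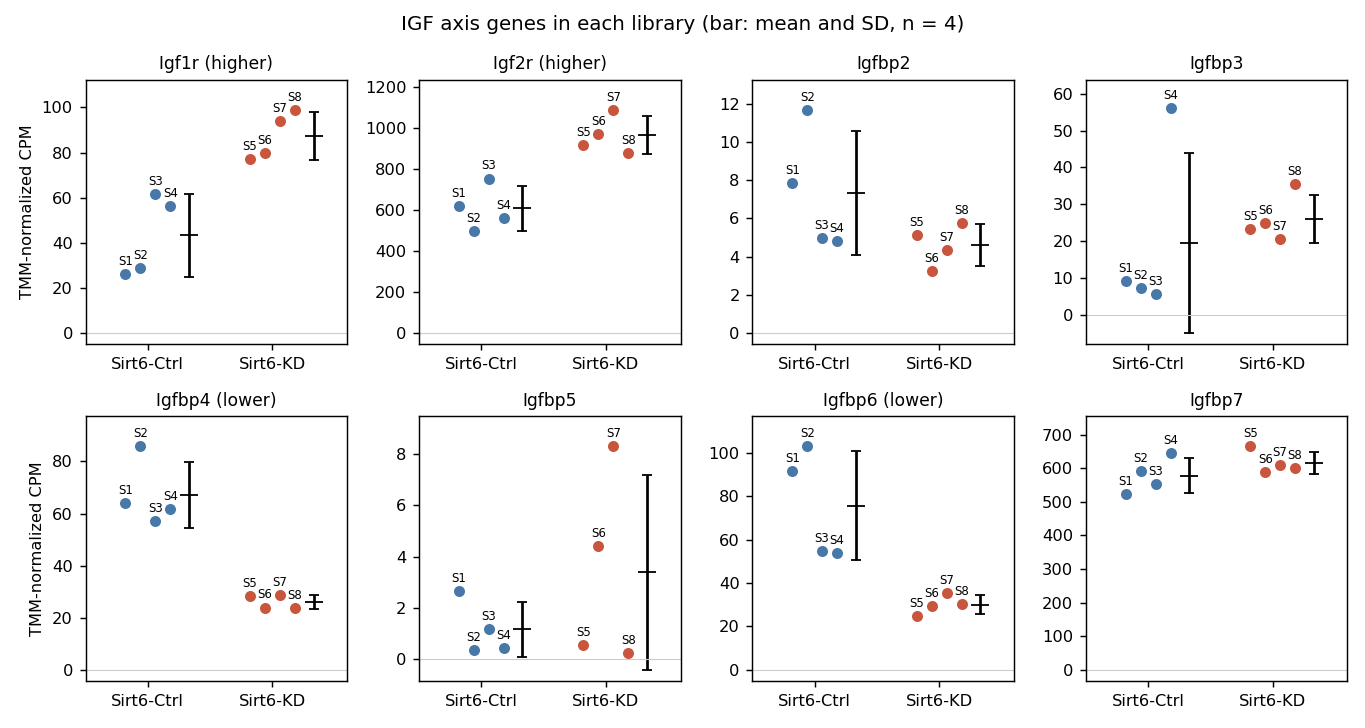
Level of the 8 tested IGF axis members, in CPM on separate linear axes from 0, in each Sirt6-Ctrl library (S1 to S4) and Sirt6-KD library (S5 to S8), with the mean and SD of each group of 4. Groups are separate for Igf1r, Igf2r, Igfbp4 and Igfbp6 and overlap for the other members, and S4 stands at 56 CPM for Igfbp3, above all 7 other libraries.

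The sequences upstream of the 4 called members differ in base composition and are shown so that the genes that rose and those that fell can be set side by side. They were taken from RefSeq on the GRCr8 assembly (the reads had been counted on Rnor_6.0). Each is the 250 bases before the annotated start on the gene's own strand, 5′ to 3′, with the GC box GGGCGG and the TATA box TATAAA in capitals. They are chr1:130959747-130959996 for Igf1r, chr1:50526628-50526877 for Igf2r, chr10:84491221-84491470 for Igfbp4 and chr7:135154669-135154918 for Igfbp6, all on the plus strand.
Igf1r: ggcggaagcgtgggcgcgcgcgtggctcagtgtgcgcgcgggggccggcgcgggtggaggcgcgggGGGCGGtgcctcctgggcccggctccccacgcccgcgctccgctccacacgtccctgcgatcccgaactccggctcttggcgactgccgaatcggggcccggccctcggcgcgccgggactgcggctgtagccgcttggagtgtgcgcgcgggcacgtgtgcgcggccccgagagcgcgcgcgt
Igf2r: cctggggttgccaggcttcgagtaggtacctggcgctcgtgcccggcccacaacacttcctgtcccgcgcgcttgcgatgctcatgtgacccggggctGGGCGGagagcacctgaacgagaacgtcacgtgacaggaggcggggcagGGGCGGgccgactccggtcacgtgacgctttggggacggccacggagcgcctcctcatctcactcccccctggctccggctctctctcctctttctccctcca
Igfbp4: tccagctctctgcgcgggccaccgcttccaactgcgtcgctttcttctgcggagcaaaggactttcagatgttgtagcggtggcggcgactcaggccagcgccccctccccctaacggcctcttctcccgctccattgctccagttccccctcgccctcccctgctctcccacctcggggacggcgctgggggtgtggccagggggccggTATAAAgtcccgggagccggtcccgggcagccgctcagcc
Igfbp6: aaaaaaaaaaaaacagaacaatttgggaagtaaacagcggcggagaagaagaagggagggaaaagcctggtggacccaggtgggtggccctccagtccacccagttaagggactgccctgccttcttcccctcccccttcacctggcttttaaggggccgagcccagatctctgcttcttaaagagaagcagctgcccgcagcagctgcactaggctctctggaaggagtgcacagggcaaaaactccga

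The Igf1r sequence was 79.6% G and C, with 45 CpG dinucleotides, and 98.8% of the 33469 promoters of the same length had a lower G and C content. Igf2r followed with 68% and 23 CpG, Igfbp4 with 68.8% and 21 CpG, and Igfbp6 with 54.8% and 5 CpG. The median promoter had 51.2% and 5 CpG, so Igfbp6 was the member of these 4 nearest to it. The GC box, the motif bound by SP1, was found on either strand in 30.5% of all promoters. It occurred 1 time before Igf1r (first base 184 bases before the start) and 2 times before Igf2r (152 and 103 bases before it). Neither Igfbp4 nor Igfbp6 held one in this window. The motif was not limited to members that rose. Among tested members that were not called, Igfbp7 (74.4% G and C) held 4 and Igfbp2 held 1, while Igfbp3 and Igfbp5 held none. The TATA box was found in 12.9% of all promoters and in 1 of the 4 called members, Igfbp4, at 40 bases before the start. The AP-1 motif TGANTCA, which 6.34% of all promoters held, had no match in the 4 windows. These matches describe letters in a window, and binding was not measured here.

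The ligands gave no level. The named table held no row for Igf1, the ligand made by liver and many tissues under growth hormone, or for Igf2, the imprinted ligand of fetal growth. That table lists exactly the 13612 rows whose reads over the 8 libraries summed to more than 80, so both genes are reported as below its count filter. Some rows carry no name (72 of those tested), and no ligand could be matched to any of them.

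Igf1r (ENSRNOG00000014187) encodes the receptor tyrosine kinase for IGF1 and IGF2. Its level was 26.3, 28.9, 61.8 and 56.1 CPM in S1 to S4 and 77.2, 79.8, 93.9 and 99.0 CPM in S5 to S8. The groups did not overlap, and S1 and S2 were the lowest of all. Means were 43.2 ± 18.3 CPM and 87.5 ± 10.6 CPM (SD, n = 4 each). The log2 fold change was 1.02 (SE 0.271, 95% interval 0.42 to 1.62, edgeR, adjusted p = 0.0249). The fit without S1 and S2 gave 0.58 (edgeR, adjusted p = 0.0328), under the fold change threshold. The call also ended when S1, S5, S6, S7 or S8 alone was left out, with log2 fold changes of 0.86 to 1.07 and adjusted p of 0.0537 to 0.0686 in edgeR.

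Igf2r (ENSRNOG00000014997) encodes the mannose 6-phosphate receptor that clears IGF2 and sorts lysosomal enzymes. It was read at 619, 498, 754 and 562 CPM in S1 to S4 and at 918, 972, 1090 and 877 CPM in S5 to S8. The lowest Sirt6-KD library, S8, was above the highest Sirt6-Ctrl library, S3. Means were 608 ± 109 CPM and 964 ± 92.9 CPM (SD, n = 4 each). The difference was 0.66 on the log2 scale (SE 0.157, 95% interval 0.32 to 1.01, edgeR, adjusted p = 0.0164). Without S1 and S2 it was 0.56 (edgeR, adjusted p = 0.0456), under the fold change threshold, and without S6 or S7 alone it was 0.66 and 0.60, with adjusted p of 0.0555 and 0.0589 in edgeR.

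Igfbp4 (ENSRNOG00000010635) encodes a secreted binding protein that mainly restrains IGF action until a protease of the pappalysin family cuts it. Its level was 64.0, 85.8, 57 and 61.6 CPM in S1 to S4 and 28.2, 23.9, 28.7 and 23.8 CPM in S5 to S8. The Sirt6-KD libraries lay close together, and all of them were well below the lowest Sirt6-Ctrl library, S3. The mean went from 67.1 ± 12.8 CPM to 26.1 ± 2.68 CPM (SD, n = 4 each). The log2 fold change was -1.36 (SE 0.166, 95% interval -1.73 to -0.99, edgeR, adjusted p = 0.00173). Igfbp4 stayed called without S1 and S2 (log2 fold change -1.17, edgeR, adjusted p = 0.00321) and in all 8 fits that left out 1 library.

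Igfbp6 (ENSRNOG00000010977) encodes the binding protein with a strong preference for IGF2. The libraries S1 to S4 had 91.5, 103, 54.6 and 53.7 CPM and S5 to S8 had 24.8, 29.6, 35.6 and 30.2 CPM. S1 and S2 were the highest, and S3 and S4 still lay above every Sirt6-KD library. Means were 75.8 ± 25.5 CPM and 30.0 ± 4.4 CPM (SD, n = 4 each), a log2 fold change of -1.33 (SE 0.236, 95% interval -1.86 to -0.81, edgeR, adjusted p = 0.00596). The log2 fold change without S1 and S2 was -0.84, and the call held (edgeR, adjusted p = 0.013), as it did in all 8 fits that left out 1 library.

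Igfbp3 (ENSRNOG00000061910) encodes the main carrier of IGF in blood. In S1 to S4 its level was 9.17, 7.27, 5.59 and 56.0 CPM, and in S5 to S8 it was 23.2, 24.9, 20.7 and 35.6 CPM. All 4 Sirt6-KD libraries were above S1, S2 and S3, and S4 was above all of them. With S4 the log2 fold change was 0.42 (SE 0.648, 95% interval -1.02 to 1.85, edgeR, adjusted p = 0.685). Without S4 it was 1.83, and the gene was called higher (edgeR, adjusted p = 0.00616). Without S1 and S2 it was -0.23 (edgeR, adjusted p = 0.852), so this member's direction followed which Sirt6-Ctrl libraries were kept.

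Igfbp2 (ENSRNOG00000016957), a carrier of the fetus and of many adult tissues, was at 7.87, 11.7, 4.97 and 4.82 CPM in S1 to S4 and at 5.12, 3.23, 4.35 and 5.74 CPM in S5 to S8. The groups overlapped, with only S1 and S2 above all Sirt6-KD libraries. The log2 fold change was -0.67 (SE 0.379, 95% interval -1.51 to 0.17, edgeR, adjusted p = 0.229), and it was -0.077 without S1 and S2.

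Igfbp5 (ENSRNOG00000017206), a binding protein that also attaches to extracellular matrix, was the member with the fewest reads. It had 93, 11, 40 and 18 reads in S1 to S4 and 19, 148, 320 and 8 reads in S5 to S8. Within Sirt6-KD the CPM ran from 0.237 in S8 to 8.34 in S7, and the groups overlapped. The log2 fold change was 1.55 with a SE of 1.06 and a 95% interval from -0.81 to 3.90 (edgeR, adjusted p = 0.323). No change was detected, and with this spread the interval reached from a fall to a large rise.

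Igfbp7 (ENSRNOG00000002050) encodes a secreted protein that binds IGF with low affinity and is deposited in the matrix. Its level was 522, 592, 554 and 645 CPM in S1 to S4 and 665, 589, 609 and 601 CPM in S5 to S8. The groups overlapped, and this was the steadiest member, with a coefficient of variation of 9.16% in Sirt6-Ctrl and 5.45% in Sirt6-KD. The log2 fold change was 0.091 (SE 0.124, edgeR, adjusted p = 0.639), and its 95% interval of -0.18 to 0.36 lies inside the fold change threshold in both directions under TMM. With spike-in scaling its log2 fold change was 1.03 (edgeR, adjusted p = 0.142).

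**Figure D2:**
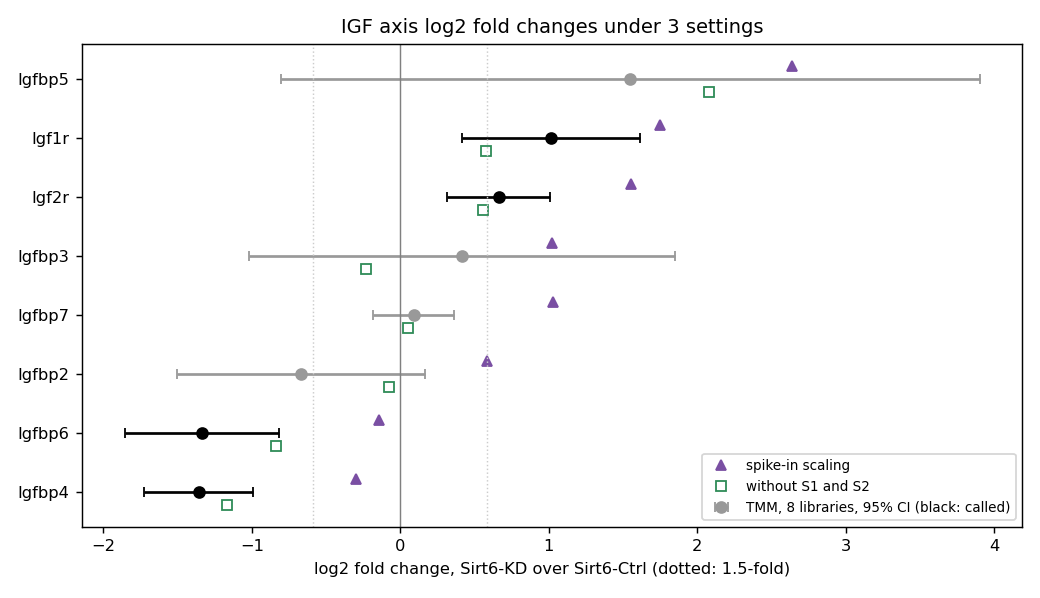
Log2 fold change between Sirt6-KD and Sirt6-Ctrl (above 0: higher in Sirt6-KD) for the 8 tested members, as circles with 95% intervals from edgeR's quasi-likelihood fit (black: called; grey: not called), with squares for the fit without S1 and S2, triangles for spike-in scaling and dotted lines at a fold change of 1.5. Intervals of Igf1r and Igf2r lie above 0, those of Igfbp4 and Igfbp6 below 0, and those of the other members span 0.

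A scaling of the libraries by their spike-ins moved the median of all genes to 0.94 on the log2 scale. Under it edgeR called 20 genes higher and 4 lower in all, none of them a member, and Sirt6 itself was at -0.36 (adjusted p = 0.567). Relative to that median, Igf1r was at 0.81, Igf2r at 0.61, Igfbp4 at -1.24 and Igfbp6 at -1.09. Before that median was subtracted, Igf1r was at 1.75 (edgeR, adjusted p = 0.0928), Igf2r at 1.56 (edgeR, adjusted p = 0.0847), Igfbp4 at -0.30 (edgeR, adjusted p = 0.625), Igfbp6 at -0.15 (edgeR, adjusted p = 0.801) and Igfbp7 at 1.03 (edgeR, adjusted p = 0.142).

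A ratio of 2 members within a library needs no scaling, and Igfbp7 was taken as the reference because it was the steadiest member under TMM. Under spike-in scaling Igfbp7 itself was at 1.03, so a ratio shows unequal change of the 2 genes and not which of them moved. These ratios were chosen after the values were seen and carry no test. Igfbp4 gave 0.123, 0.145, 0.103 and 0.0955 reads per Igfbp7 read in S1 to S4 and 0.0425, 0.0405, 0.0471 and 0.0396 in S5 to S8. Igfbp6 gave 0.176, 0.175, 0.0985 and 0.0833 in S1 to S4 and 0.0374, 0.0503, 0.0584 and 0.0502 in S5 to S8. Both ratios were lower in every Sirt6-KD library than in any Sirt6-Ctrl library. Igf1r gave 0.0505, 0.0487, 0.111 and 0.087 reads per Igfbp7 read in S1 to S4 and 0.116, 0.136, 0.154 and 0.165 in S5 to S8. Igf2r gave 1.19, 0.841, 1.36 and 0.872 in S1 to S4 and 1.38, 1.65, 1.79 and 1.46 in S5 to S8. For both receptors S3 nearly reached S5, at 0.111 against 0.116 for Igf1r and at 1.36 against 1.38 for Igf2r. Between the members that moved the same way the ratios overlapped. There were 0.0705 ± 0.0253 Igf1r reads per Igf2r read in Sirt6-Ctrl and 0.0913 ± 0.0145 in Sirt6-KD (SD, n = 4 each). There were 0.93 ± 0.202 Igfbp4 reads per Igfbp6 read in Sirt6-Ctrl and 0.885 ± 0.169 in Sirt6-KD (SD, n = 4 each). Set against each other, Igfbp4 and Igf1r gave 2.43, 2.97, 0.922 and 1.1 Igfbp4 reads per Igf1r read in S1 to S4 and 0.366, 0.299, 0.305 and 0.24 in S5 to S8. This ratio split the groups, and S1 and S2 stood above S3 and S4 in it. Reads were not divided by transcript length, so a ratio compares libraries and not the 2 genes.

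**Figure D3:**
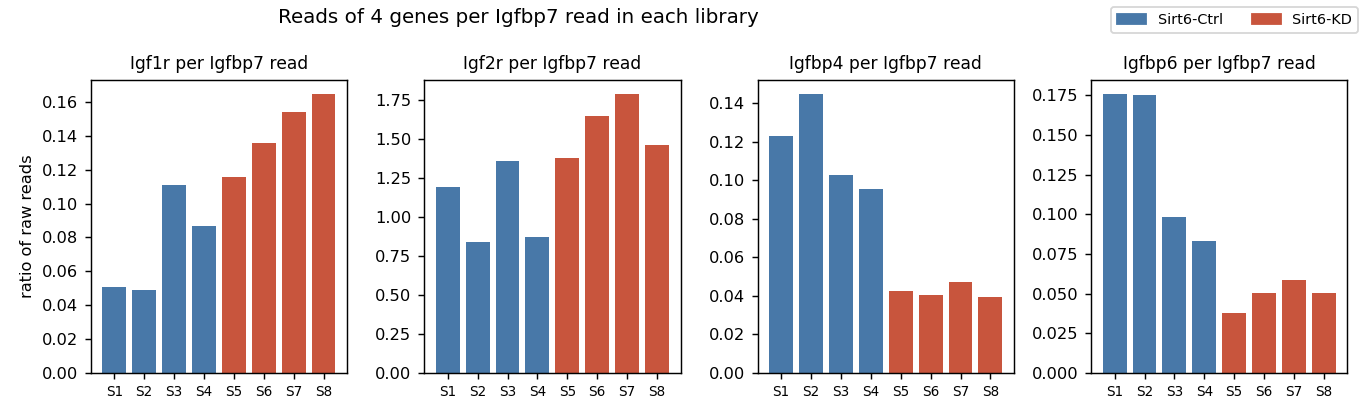
Raw reads of Igf1r, Igf2r, Igfbp4 and Igfbp6 per Igfbp7 read (a ratio without unit, linear axes from 0), with 1 bar for each Sirt6-Ctrl library (S1 to S4) and each Sirt6-KD library (S5 to S8). Igfbp4 and Igfbp6 are lower, and Igf1r and Igf2r higher, in all 4 Sirt6-KD libraries than in any Sirt6-Ctrl library.

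The genes around the axis were followed in 5 lists of 93 genes, of which 82 were tested. The lists were written from general knowledge but with earlier results of these data known, so their shares are a description. Of these 82, 15 were called higher (18.3%, against 8.02% of all genes) and 6 lower (7.32%, against 10.7%), and their median log2 fold change was 0.34. In 24 of them every Sirt6-KD library lay above every Sirt6-Ctrl library, and in 10 every one lay below, which are 29.3% and 12.2% of the 82. Over all genes these shares were 14.8% and 15.6%. With S1 and S2 left out, 12 were called higher and 4 lower, beside 810 higher and 709 lower over all genes in that fit. The 15, the 24 and the 12 each include Pappa2, which passed the filter on low counts through its Sirt6-KD libraries and so had to differ. The 11 genes with no row by name were Igfbp1, Igfals, Igfbpl1, Pappa, Adam28, Tmem219, Vtn, Insrr, Irs4, Foxo6 and H19.

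Of 12 tested proteins that act on IGF or its carriers outside the cell, 4 were called higher (33.3%) and 1 lower (8.33%). Over all genes these shares were 8.02% and 10.7%, and the list's median log2 fold change was 0.45. Pappa2, a protease that cuts IGFBP3 and IGFBP5, had 2, 6, 0 and 1 reads in S1 to S4 and 94, 91, 30 and 73 reads in S5 to S8. Near the floor in Sirt6-Ctrl, it passed the filter on low counts through its Sirt6-KD libraries and so had to differ. It is counted among the 4 called higher, but its call in this or any other fit came with that filter and is no support for a change. Lrp1, a large endocytic receptor that also binds IGFBP3, rose from 1470 ± 313 to 3290 ± 228 CPM (SD, n = 4 each). Its log2 fold change was 1.16 (SE 0.17, edgeR, adjusted p = 0.00327), and 1.02 without S1 and S2. Pcsk5, a proprotein convertase, rose by 0.91 (SE 0.175, edgeR, adjusted p = 0.00795), and by 1.02 without S1 and S2. Adam12, a metalloprotease that cuts IGFBP3 and IGFBP5, went from 54.2 ± 46.9 to 193 ± 24.9 CPM (SD, n = 4 each). Its log2 fold change was 1.83 (edgeR, adjusted p = 0.0472), S1 and S2 were at 18.4 and 11.4 CPM, and without both it was 1.06 (edgeR, adjusted p = 0.0091). The Adam12 call ended without S1, S5, S6, S7 or S8 alone (largest adjusted p of edgeR 0.111). Htra3, a secreted serine protease, fell by 1.56 (edgeR, adjusted p = 0.0306), a call that ended without S1, S4, S5, S6, S7 or S8 alone (largest adjusted p of edgeR 0.0913) and held without S1 and S2 together (-1.66). Its relative Htra1, the gene of this list with the highest level among those not called, was at 1780 ± 330 and 1530 ± 85.8 CPM (SD, n = 4 each; edgeR, adjusted p = 0.336).

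Next to the receptor, 3 of 14 tested genes were called higher (21.4%, against 8.02% of all genes) and 0 lower (against 10.7%). The median log2 fold change was 0.37. At an unadjusted p below 0.05 edgeR gave 6 positive and 1 negative change in this list, and DESeq2 and limma-voom each called 4 higher and 0 lower. Shares of all genes at these settings are not given here, so these counts cannot be set against a background. Insr, the insulin receptor and closest relative of Igf1r, had 24.0, 36.6, 40.2 and 31.1 CPM in S1 to S4 and 54.7, 52.0, 54.3 and 46.3 CPM in S5 to S8. The groups did not overlap, and the log2 fold change was 0.65 (SE 0.175, edgeR, adjusted p = 0.025). Its call ended without S1, S5, S6 or S7 alone, and without S1 and S2 together the value was 0.55, under the fold change threshold. Irs2, an adaptor that carries the signal from both receptors, rose from 61.2 ± 20.6 to 127 ± 13.6 CPM (SD, n = 4 each; log2 fold change 1.05, SE 0.211, edgeR, adjusted p = 0.00906). Ptpn1, a phosphatase that removes phosphate from the receptors, rose by 0.85 (SE 0.191, edgeR, adjusted p = 0.0133). Irs2 and Ptpn1 stayed called without S1 and S2 (0.89 and 0.80) and with each library left out. Rack1, a scaffold that binds IGF1R, was at 681 ± 218 and 741 ± 64.5 CPM (SD, n = 4 each; edgeR, adjusted p = 0.717).

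In the PI3K-AKT-mTOR list 4 of 28 tested genes were called higher (14.3%, against 8.02% of all genes) and 3 lower (10.7%, the share of all genes), with a median log2 fold change of 0.29. Pik3r1, the p85 regulatory subunit of PI3K, rose from 46.8 ± 16.9 to 123 ± 7.25 CPM (SD, n = 4 each). Its log2 fold change was 1.40 (SE 0.215, edgeR, adjusted p = 0.00377), and 1.13 without S1 and S2. Phlpp1, a phosphatase of AKT, rose by 1.14 (SE 0.221, edgeR, adjusted p = 0.00819), and by 0.89 without S1 and S2. Inppl1, the lipid phosphatase SHIP2, rose by 0.62 (edgeR, adjusted p = 0.0237). Its call ended without S1, S2, S5, S6, S7 or S8 alone, and without S1 and S2 together it was at 0.40. Akt1s1, the inhibitor PRAS40 of the kinase complex mTORC1, fell from 220 ± 49.5 to 113 ± 12.9 CPM (SD, n = 4 each; log2 fold change -0.96, SE 0.172, edgeR, adjusted p = 0.00634). It was at -0.66 without S1 and S2 and still called. Rheb, the GTPase that activates mTORC1, fell by 0.68 (SE 0.133, edgeR, adjusted p = 0.00825), and Rps6kb2, an S6 kinase, fell by 1.09 (SE 0.247, edgeR, adjusted p = 0.0141). When S1 and S2 were left out, Rheb was at -0.48, under the fold change threshold, and Rps6kb2 at -0.74 (edgeR, adjusted p = 0.0639), and the Rheb call also ended without S1 alone (-0.55). Eif4ebp1, a translation repressor that mTORC1 phosphorylates, was at 198 ± 55.4 and 231 ± 21.3 CPM (SD, n = 4 each; edgeR, adjusted p = 0.425).

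Of 19 tested FOXO factors and genes that FOXO factors are known to induce, 4 were called higher and 2 lower. The share called higher was 21.1%, against 8.02% of all genes, and the share called lower was close to the 10.7% of all genes. The list's median log2 fold change was 0.50. Sod2, the mitochondrial superoxide dismutase, had 400, 648, 581 and 465 CPM in S1 to S4 and 937, 936, 973 and 770 CPM in S5 to S8. It rose by 0.79 (edgeR, adjusted p = 0.0123), and the groups did not overlap. Cited2, a transcriptional coregulator, rose by 0.61 (edgeR, adjusted p = 0.0201), Bcl6, a transcriptional repressor, by 0.75 (edgeR, adjusted p = 0.0249) and Fbxo32, a ubiquitin ligase of muscle atrophy, by 1.15 (edgeR, adjusted p = 0.031). Sesn1, a sestrin that restrains mTORC1, fell by 1.14 (edgeR, adjusted p = 0.0378), and Pik3ip1, an inhibitor of PI3K, fell by 1.43 (edgeR, adjusted p = 0.031). The Sod2 call held with each library left out, whereas the other 5 calls each ended without S1, S5 or S6 alone. They also ended without S7 for all but Cited2, without S4 for Cited2, Sesn1 and Pik3ip1 and without S8 for Sesn1 (largest adjusted p of edgeR 0.0666 for Cited2, 0.0802 for Bcl6, 0.0922 for Fbxo32, 0.112 for Sesn1 and 0.096 for Pik3ip1). Fbxo32 and Pik3ip1 without S1 and S2 were at 1.20 and -1.54 and not called (edgeR, adjusted p = 0.0813 and 0.0573), while Sod2 (0.80), Cited2 (0.66), Bcl6 (0.89) and Sesn1 (-1.30) were. Gadd45a, a DNA damage response gene, was at -0.30 (edgeR, adjusted p = 0.346). Among 9 genes of growth hormone signalling and of Igf2 mRNA control, edgeR called 0 in either direction, against 8.02% (higher) and 10.7% (lower) of all genes. Of these 9, 2 were at an unadjusted p below 0.05 in edgeR, both negative, and the list's median log2 fold change was -0.52. DESeq2 called 1 of the 9 lower and limma-voom 0, and here too no share of all genes is given. Ghr, the growth hormone receptor, named after its values were seen, was at -0.94 with all libraries (edgeR, adjusted p = 0.0815). Its groups overlapped and it was not called. Without S1 and S2 Ghr was called lower (log2 fold change -1.29, edgeR, adjusted p = 0.0168). Klf15 of the FOXO list also gained a call in that fit, as higher (log2 fold change 1.01, edgeR, adjusted p = 0.0344). Jak2, the kinase at the growth hormone receptor, was at 0.18 (edgeR, adjusted p = 0.458).

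**Figure D4:**
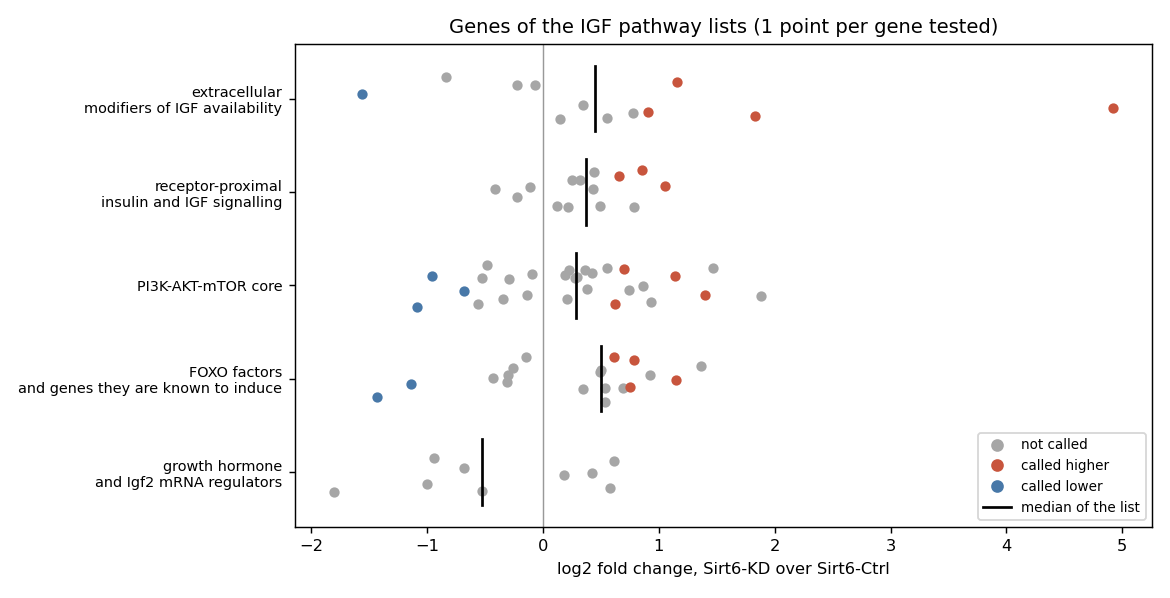
Log2 fold change between Sirt6-KD and Sirt6-Ctrl (above 0: higher in Sirt6-KD) of the 82 tested genes of the 5 pathway lists, with 1 point for each gene, the called genes in red (higher) and blue (lower), and a vertical bar at each list's median. Medians run from -0.52 in the growth hormone and Igf2 mRNA list to 0.50 in the FOXO list, beside -0.016 over all genes tested.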

How the data were processed

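RNA was extracted from primary rat NP cells and sequenced by Azenta. Per the labels, the authors used Trimmomatic 0.36, STAR 2.5.2b and featureCounts of Subread 1.5.2 on Rnor_6.0, with DESeq2. The deposited counts are raw reads for each Ensembl gene and ERCC spike-in (32975 rows). They also deposited a comparison table holding normalized signal per library, a log2 fold change and p-values. That table gave the gene names only, and its comparison columns were not used. Raw counts were filtered with filterByExpr and tested with edgeR 4.0.16 in R 4.3.3 (TMM, glmQLFTest, two-sided, Benjamini-Hochberg over 13313 rows, of which 63 were spike-ins). The fit was also run on simulated counts with the same spread for every gene and library, which cannot test it under the uneven libraries found here. No pair of libraries agreed within sampling noise. Floors of 3 reads cover counting error only, since reads carry no molecular identifiers, whereas edgeR's intervals include the spread between libraries. Members and lists were chosen with earlier results of these data known. All 10 members were named, and of each pathway list the called genes (at most 6) and the uncalled gene with the highest level. Not every called gene is reported here. Alternatives were other scalings (spike-ins included), filters, DESeq2 1.42.0, limma-voom (limma 3.58.1), glmTreat, no fold threshold and left-out libraries. Strand use in counting was not given in the sources used here.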

Additional observations from a re-analysis of the deposited data

Results flagged for a closer look

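Among 66 groups of 4 libraries (the 8 tested members and the named pathway genes in both conditions), 2 held a library far from the other 3 by Dixon's test at the 95% level, which chance passes in about 1 in 20 groups. Igfbp3 in Sirt6-Ctrl was highest in S4, where the gap to the next library was 0.929 of the group's range (56.0 CPM against 5.59 to 9.17 CPM). Pik3ip1 in Sirt6-KD was highest in S8, with a gap of 0.94 of the range (7.25 CPM against 2.55 to 2.84 CPM).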

How the results depend on the processing

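Over 19 alternatives, the 4 called members kept their direction in every one. Igfbp4 kept its call in 18 and Igfbp6 in 17, whereas Igf2r kept it in 14 and Igf1r in 11. Dropping the fold threshold cannot end a call, and all alternatives reuse the same libraries, so these tallies are not independent tests. Under spike-in scaling 0 members were called higher and 0 lower, beside 20 higher and 4 lower over all genes. Of the pathway genes 1 was called higher and 0 lower, and that 1 was Pappa2, which had to differ. Testing against a fold change of 1.5 (glmTreat) left 0 members higher and 1 lower (Igfbp4, adjusted p = 0.0169; Igfbp6 was at 0.0526), with 3 pathway genes higher and 0 lower. Without S1 and S2, 0 members were higher. With 1 library left out, the members called higher ranged from 0 (without S6 or S7) to 3 (without S4, with Igfbp3) and those called lower stayed at 2. Pathway genes called higher ranged from 8 (without S5 or S6) to 27 (without S3), with 9 without S1 or S7, and those called lower from 2 (without S1) to 7 (without S2), with 3 without S5 or S6. DESeq2 called 22 pathway genes higher and 8 lower. Shares of all genes are not given for glmTreat, DESeq2 or the fits with 1 library left out, so these counts lack a background. Igfbp2 turned to 0.59 under spike-in scaling, and Igfbp3 to -0.23 without S1 and S2. The causes were not tested. No paired analysis was possible because the labels and count columns carry no number that pairs Sirt6-KD with Sirt6-Ctrl libraries. At 8 to 320 reads per library, Igfbp5 is limited by its spread between libraries.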
